A study of Petromyzon marinus with 17 samples.

Results

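Non-methylated islands (NMIs, also called CpG islands) that the sea lamprey carried in sperm, brain, muscle and PBMCs (mononuclear cells of the peripheral blood), and in neither day 1 nor day 2 embryos, were examined. They were chosen from BioCAP peak lists of 12 libraries, with 2 replicates for each of 6 tissues. The set of a tissue was made of the bases covered in both of its replicates, and the 6 sets were joined into 166793 merged NMIs wherever they overlapped or touched. A merged NMI counted as present in a tissue when it held at least 1 bp of that tissue's set. Under this rule 7754 merged NMIs (4.65%) were present in sperm and in the 3 adult somatic tissues and absent from both embryonic stages. They covered 4.53 Mb of the 115 Mb of merged NMIs. The calls that chose these NMIs are the same calls that are described here, so their presence in 4 tissues and absence from 2 is the rule and not a finding, and no test was run on it.

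In most vertebrate genomes, CpG sites are methylated unless they lie in NMIs, short CpG-rich stretches that escape methylation and often coincide with promoters and other regulatory elements. In many vertebrates the parental methylomes are remodelled after fertilisation, so that sites free of methylation in a gamete can differ from those in the early embryo and from those in differentiated cells. For the sea lamprey, the study reports intermediate methylation at most CpG sites. It also reports that day 1 and day 2 embryos resembled sperm in methylation and in BioCAP signal. BioCAP uses the CxxC domain of the human protein KDM2B, whose zinc fingers bind CpGs that lack methylation, to capture pieces of sonicated genomic DNA for sequencing. A peak thus marks a stretch dense in unmethylated CpGs, and the lack of a peak says only that the captured signal stayed under the peak caller's threshold. Unmethylated DNA covered by too few usable reads and methylated DNA cannot be told apart in a peak list.

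All material came from sea lampreys (Petromyzon marinus), with no treatment or genotype named in the labels. Sperm, brain, muscle and PBMCs are labelled adult, and the embryos are labelled embryonic day 1 and embryonic day 2, both of which precede activation of the zygotic genome. The labels number 2 replicates per tissue and the study's methods call them biological replicates. Brain and muscle replicates included a male and a female fish, and both PBMC replicates came from males, so that the sex of the animal and the replicate cannot be told apart in brain and muscle. The labels name no cell type within the embryos, brain or muscle. The labels name 5 input libraries, for sperm, day 1, day 2, brain and muscle, and none for PBMC. The inputs were not used here, and whether PBMC calls rest on another kind of background was not tested.

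The embryo libraries were the shallow ones of the series in usable reads. In the study's mapping table they had more read pairs than the sperm libraries, but the lowest percentages of uniquely mapped pairs. Their percentages of duplicates were above those of sperm, muscle and PBMC. Their lists held 89979 to 119911 intervals, against 115448 to 141921 in the 8 sperm and adult libraries. The height of the captured signal at an interval's summit (its pileup, in fragments) was back-calculated from the fold enrichment and the p-value of each interval. The median pileup per list was 14.0 to 15.0 in the 4 embryo libraries, and 46.0 to 75 in the sperm and adult libraries. The median local background was 0.701 to 0.932 fragments in the embryo libraries and 3.47 to 7.78 in the others. In brain replicate 2 and in the muscle and PBMC libraries, under 5% of these pileups came out as whole numbers, so that they may be scaled values there. In the other 7 libraries 88.9 to 100.0% were whole within 0.02.

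The count of 7754 was set beside the other ways in which an NMI can be present in 4 tissues and missing in 2. Of the 15 such patterns, absence from day 1 and day 2 held the most NMIs. The next pattern, absence from day 2 and PBMC, held 3280, and absence from brain and PBMC held 1611. The fewest, 21, were absent from sperm and muscle. When every library was reduced to the 89979 intervals with the largest -log10 q, as many as the shortest list holds, 2466 NMIs of sperm and the adult tissues remained absent from both embryonic stages. That was still the highest count among the 15 patterns, but absence from brain and PBMC then followed with 1772, and only 1171 of the 7754 NMIs were among the 2466. When an interval of either replicate counted as presence in every tissue, the first rank was kept, with 4690 NMIs against 3482. It was lost when this held for the embryo libraries only, since 2531 NMIs of sperm and adult tissues then remained. The highest other pattern held 2742 under that setting. Equal list length does not make the libraries equally deep, since the day 2 lists are cut least.

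**Figure D1:**
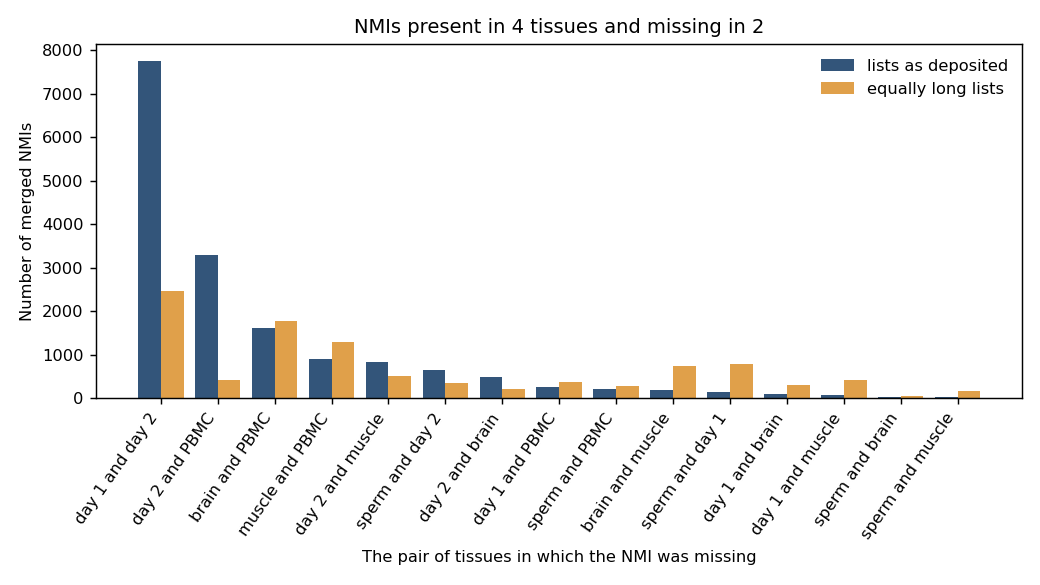
Number of merged NMIs (vertical axis) for each of the 15 pairs of tissues from which an NMI can be missing while present in the other 4 (horizontal axis), with the deposited lists and with lists cut to equal length. The pair day 1 and day 2 held 7754 NMIs with the former and 2466 with the latter, the highest count in both.

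Because the rule asks for a base shared by both embryo replicates, an NMI could be chosen although a single embryo library had an interval in it. This was the case for most of them. Of the 7754 NMIs, 5223 (67.4%) overlapped an interval of at least 1 of the 4 embryo libraries, and 2531 (32.6%) overlapped none. The background was 28.1% over the 70222 merged NMIs outside both embryo sets, and 57.9% over the 25598 of those that were present in sperm. Among the 11188 NMIs present in brain, muscle and PBMC but not in sperm, 11.7% had an embryo interval, and among the 8881 present in sperm and in no other tissue the percentage was 49.0%. Outside the embryo sets, an embryo interval was thus present at 10.9% of NMIs without sperm and at 57.9% of NMIs with it. The percentage for NMIs of sperm, brain and muscle without PBMC, 67.7%, was close to that for NMIs of all 4 tissues. It was lower, at 58.0%, for those of sperm, brain and PBMC without muscle, and 50.1% for those of sperm, muscle and PBMC without brain.

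By library, day 1 replicate 1 had an interval at 2176 of the 7754 NMIs (28.1%) and day 1 replicate 2 at 2445 (31.5%). Day 2 replicate 1 had one at 1092 (14.1%) and day 2 replicate 2 at 1367 (17.6%). Both day 1 libraries were therefore above both day 2 libraries. Each of these percentages exceeded that of all merged NMIs outside the embryo sets, which ranged from 4.03% in day 2 replicate 1 to 13.7% in day 1 replicate 1. Taking the stages as a whole, 4536 NMIs (58.5%) had an interval in a day 1 library, against a background of 25.3%, and 2447 (31.6%) in a day 2 library, against 8.71%. Over those NMIs outside the embryo sets that were present in sperm, the day 1 background was 52.4% and the day 2 background 19.6%. In NMIs of sperm, brain and muscle without PBMC, 62.1% had a day 1 interval and 22.2% a day 2 interval. For those of sperm, brain and PBMC without muscle the percentages were 54.5 and 15.0%. For those of sperm, muscle and PBMC without brain they were 44.4 and 19.3%. The day 1 percentage of the 7754 NMIs thus lay within the range of these sets, and their day 2 percentage above it.

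**Figure D2:**
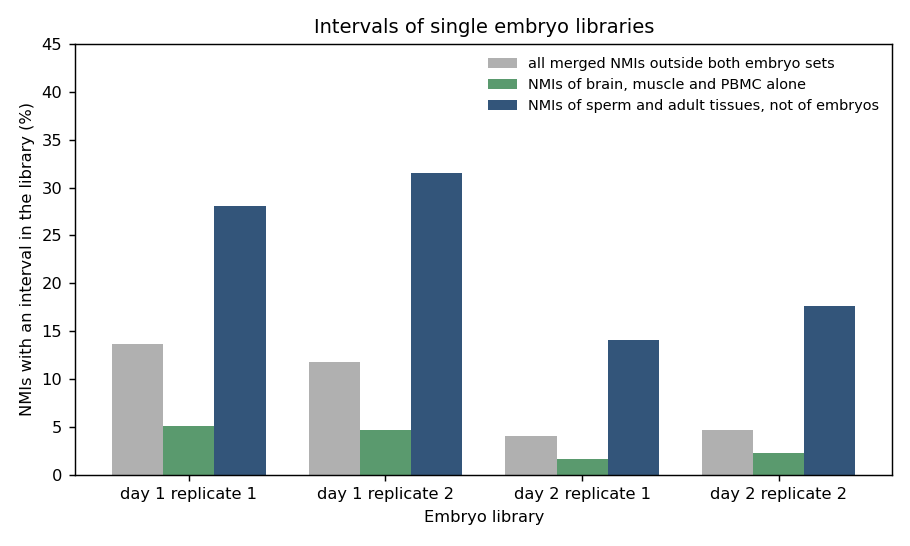
Percentage of NMIs (vertical axis) that overlap an interval of each single embryo library (horizontal axis), for the 7754 NMIs of sperm and adult tissues and not of embryos, for the 11188 NMIs of brain, muscle and PBMC alone and for all 70222 merged NMIs outside both embryo sets. The NMIs of sperm and adult tissues stand at 14.1 to 31.5%, above the other bars in all 4 libraries.

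Most NMIs with an embryo interval had it in 1 library, and the rule shaped which combinations could occur. There were 3420 NMIs (44.1%) with an interval in a single embryo library, against a background of 22.0% in all and 43.5% with sperm present. The percentage was thus close to that of NMIs with sperm. Of the 3420 NMIs, 1382 had it in day 1 replicate 2, 1351 in day 1 replicate 1, 398 in day 2 replicate 2 and 289 in day 2 replicate 1. A further 1751 had intervals in 2 libraries and 52 in 3 or 4 libraries, together 1803 (23.3%), against a background of 6.05% in all and 14.4% with sperm present. Pairs of 1 day 1 library with 1 day 2 library were the common ones, with 538, 432, 400 and 338 NMIs for the 4 possible pairs. At 1729 NMIs (22.3%) a day 1 library and a day 2 library shared a base, against a background of 5.84% in all and 13.9% with sperm present. The replicate rule, which compares libraries within a stage, does not see such a match between stages.

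In 95 of the 7754 NMIs both replicates of an embryonic stage had intervals that did not share a base, 85 of them at day 1 and 12 at day 2. The widest was PIZI01000024v1:9395641-9397610 (1970 bp), where fold enrichment reached 10 and 6.52 in the sperm replicates. There the day 1 replicates had 5.87 and 5.72 and day 2 replicate 1 had 4.99, with no interval in day 2 replicate 2. Next came PIZI01000001v1:9958432-9960379 (1948 bp), where the sperm replicates had 20.8 and 14.6, the day 1 replicates 5.16 and 7.57 and day 2 replicate 2 had 6.04. The third was PIZI01000025v1:4840102-4842047 (1946 bp), where the sperm replicates had 6.21 and 6.47, the day 1 replicates 3.88 and 4.98 and day 2 replicate 1 had 3.53. In each of these, all embryo libraries but 1 had an interval. Every sperm value was above the embryo values of the same NMI. Fold enrichment depends on the depth and background of a library, however, so these values are not on a common scale. Such NMIs entered the set because the embryo intervals shared no base. They were counted for this set only, so the 95 cannot be read as a trait of it.

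The embryo intervals at these NMIs were weak ones of their lists. The rule brings this about in part, since it removes NMIs where both replicates of a stage share a base, and nearly all embryo intervals left at the NMIs (2212 of 2221 and 2469 of 2474 for day 1, 1096 of 1098 and 1374 of 1375 for day 2) had no partner in the other replicate. Their median fold enrichment was 5.06 and 5.02 for day 1 (replicates 1 and 2) and 4.86 and 4.91 for day 2. Over all intervals without a partner in the other replicate the medians were 4.71 and 4.79 for day 1 and 4.88 and 4.91 for day 2. Intervals with a partner had medians of 8.84 and 9.04 for day 1 and 9.33 and 9.95 for day 2. Their median pileup was 9 fragments for both day 1 libraries, and 7 and 8 for the day 2 libraries, where intervals with a partner had 15.0 to 17.0. The weakest 5% of intervals in each embryo list had pileups of 6 or less. The NMIs of sperm and adult tissues held 14.0 and 17.5% of the unpartnered day 1 intervals (replicates 1 and 2), and 9.92 and 11.7% of the unpartnered day 2 intervals. They were 7754 of the 70222 merged NMIs outside both embryo sets, and no share was computed for another set. The shares therefore cannot be read as a trait of these NMIs.

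The place of the embryo intervals within the NMIs was also recorded. Of the 5223 NMIs with an embryo interval, 5184 (99.3%) had one that overlapped the sperm stretch of the NMI, and 5094 (97.5%) had one that overlapped the stretch common to sperm and the 3 adult tissues. Sperm covered a median of 75% of an NMI and the common stretch a median of 59.7%. The embryo intervals had median widths of 277 to 298 bp. At the median sizes, an interval lying wholly inside an NMI must overlap the sperm stretch, since the rest of the NMI is shorter. An interval that runs past the edge of the NMI need not, so size favours an overlap but does not force it. No other placement was compared.

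Enrichment within the NMIs was next compared between tissues. Since fold enrichment depends on the depth and background of a library, each value was expressed as a percentile within the library's own list, from the lowest at 0 to the highest at 100. In sperm the NMIs had median percentiles of 25.6 and 32.0 in the 2 replicates, corresponding to fold enrichments of 6.41 and 7.23. In brain they stood at 45.6 and 48.8, in muscle at 42.8 and 38.5 and in PBMC at 39.3 and 39.8. The sperm replicates were the lowest of the 8, and the lowest adult value exceeded the higher sperm value. NMIs present in all 6 tissues, of which there were 54406, had medians of 69.8 to 78.2 in the same 8 libraries. The lower rank of sperm was not particular to the set. Over all merged NMIs outside the embryo sets that had an interval, the medians were 18.0 and 24.1 in sperm and 31.0 to 35.2 in the adult libraries, both below those of the 7754 NMIs.

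A closer match was the set of 10174 NMIs present in sperm, the adult tissues and day 1 but absent from day 2. In these, the median percentiles were 37.7 and 45.7 in sperm and 34.7 to 54.5 in the adult libraries. The sperm libraries thus differed between the 2 sets more than the adult libraries did. Averaged per NMI over replicates, sperm was 12.6 percentile points below the adult tissues in the median (difference -12.6), and it was the lower of the pair in 5882 of 7754 NMIs (75.9%). The corresponding median difference was -1.73 with day 1 present, with sperm lower in 54.1%, and 2.91 in NMIs of all 6 tissues, with sperm lower in 41.1%. Sperm was the weakest of the 4 tissues in 4101 NMIs (52.9%), and brain was the strongest in 3475 (44.8%). These counts were made for this set only. Without a percentage over other NMIs beside them, they cannot be read as a trait of the set.

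**Figure D3:**
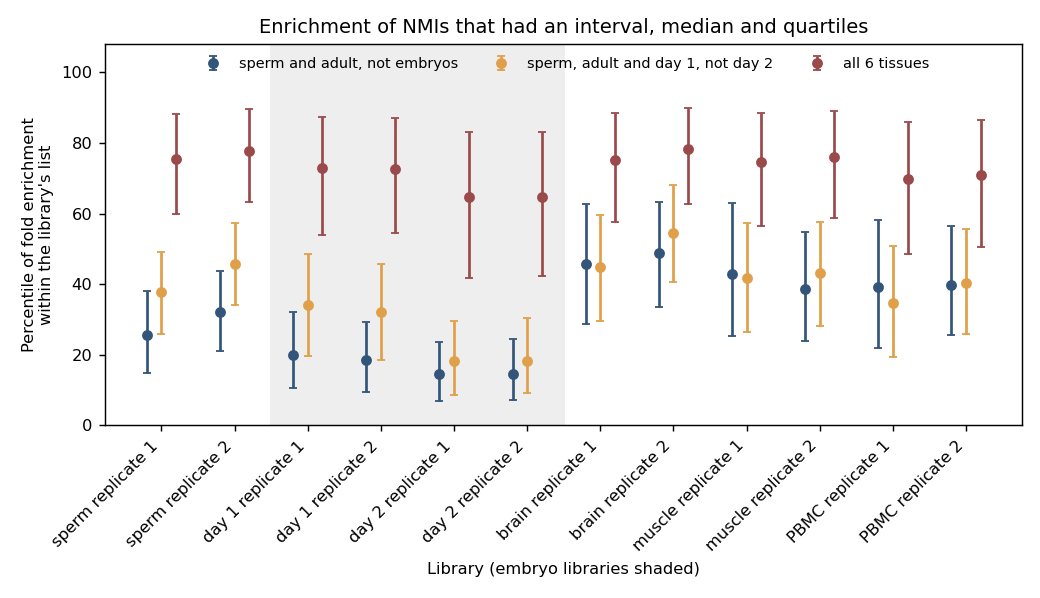
Percentile of fold enrichment within each library's list (vertical axis, points are medians over NMIs with an interval, bars run from the lower to the upper quartile) for the 12 libraries (horizontal axis, embryo libraries shaded) and 3 sets of NMIs. The NMIs of sperm and adult tissues stand at 25.6 and 32.0 in sperm and at 38.5 to 48.8 in the adult libraries, and the embryo points rest on the 1092 to 2445 NMIs that had an interval there.

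The presence of an embryo interval moved with the strength of the NMI in sperm. When the 7754 NMIs were ranked by their sperm percentile and divided into 4 groups of nearly equal size, 52.3% of the weakest group had an embryo interval, followed by 64.0, 72.5 and 80.6% in the stronger groups. For day 2 libraries alone, the percentages were 15.6, 25.1, 34.7 and 50.9%. Ranked by the adult percentile, the percentages with any embryo interval were 63.6, 67.2, 68.1 and 70.6%, a narrower span than across the sperm groups. The adult ranking separated the stages. Intervals of day 1 libraries ran from 59.3% in the weakest adult group to 57.1% in the strongest, whereas those of day 2 libraries ran from 18.3 to 45.2%. Ranked by width, 60.8% of the narrowest and 71.8% of the widest group had an embryo interval. These groups were formed for this set only, so the trends cannot be read as particular to it.

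**Figure D4:**
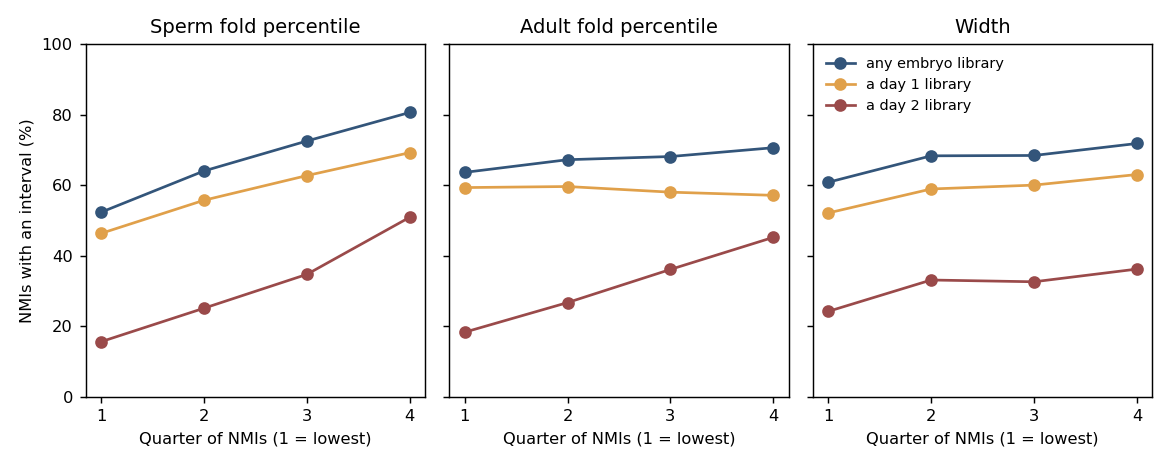
Percentage of NMIs with an interval in any embryo library, in a day 1 library and in a day 2 library (vertical axis), for 4 groups of NMIs ranked by sperm percentile, by adult percentile and by width (horizontal axis, 1 is the lowest). From the lowest to the highest group, any embryo interval ran from 52.3 to 80.6% by sperm percentile, from 63.6 to 70.6% by adult percentile and from 60.8 to 71.8% by width.

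The same NMIs were also sorted by the number of embryo libraries with an interval. This reads the same relation from the other side and is no second support for it. The 2531 NMIs with none had a median sperm percentile of 23.4, those with 1 library had 28.7 and the 1803 with 2 or more libraries had 37.3. The adult percentiles of the 3 groups were 40.6, 39.8 and 48.1, so that NMIs with none and NMIs with 1 library differed in sperm and hardly in the adult tissues. Their median widths were 466, 487 and 528 bp. The absence of embryo intervals thus moved with the strength in sperm, and the embryo libraries were also the shallow ones of the series. The part of each was not tested.

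The 7754 NMIs were about as wide as merged NMIs in general, and in some the sperm signal was a small part of a wide adult NMI. Widths ran from 245 to 4971 bp, with a median of 491 bp and quartiles of 388 and 686 bp. All merged NMIs had a median of 506 bp, those outside both embryo sets 357 bp, those of all 6 tissues 904 bp and those with day 1 present 563 bp. The median stretch was 340.0 bp in sperm, 428 bp in brain, 351 bp in muscle and 364 bp in PBMC. In 7664 NMIs (98.8%) sperm, brain, muscle and PBMC shared at least 1 base, with a median common stretch of 273 bp, and in 90 NMIs (1.16%) they shared none. The sperm stretch was less than 50% of the adult stretch in 1391 NMIs (17.9%), compared with 3.42% in NMIs of all 6 tissues and 9.49% in those with day 1 present. Both comparison sets ranked higher in sperm, with median percentiles of 76.4 and 41.8, against 28.9. No other set was measured, so a short sperm stretch cannot be read as particular to these NMIs.

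The 5 widest NMIs all had a short sperm stretch within a long adult one. The widest, PIZI01000099v1:536328-541298 (4971 bp), had 542 bp of sperm signal and 4221 bp in brain, 2464 bp in muscle and 3812 bp in PBMC. Its fold enrichment was 6.97 and 7.62 in the sperm replicates, 18.6 and 14.8 in brain, 17.5 and 19.1 in muscle and 29.4 and 24.6 in PBMC. Of the embryo libraries, day 1 replicate 2 had an interval there, with a fold enrichment of 3.34. Sperm and adult values did not overlap at this NMI, although fold enrichments of different libraries are not on a common scale.

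The second, PIZI01000003v1:20958127-20961969 (3843 bp), had 277 bp in sperm at fold enrichments of 4.45 and 4.40, against 23.0 to 35.8 in the 6 adult libraries. Day 1 replicate 2 and day 2 replicate 2 had intervals there, at 3.30 and 3.94. At PIZI01000054v1:3773896-3777077 (3182 bp), no embryo library had an interval, and sperm had 332 bp at 8.61 and 13.0 beside 15.7 to 34.5 in the adult libraries. It was one of only 2 among the 5 widest without any embryo interval. The other, PIZI01000033v1:5471833-5474966 (3134 bp), had 161 bp in sperm at 3.89 and 4.25, and 13.5 to 57.2 in the adult libraries. At PIZI01000061v1:3301424-3304495 (3072 bp), sperm had 295 bp at 6.13 and 8.09, the adult libraries 15.6 to 44.7 and day 2 replicate 2 an interval at 5.01. In all 5, both sperm values were below the lowest adult value, again without a common scale between libraries.

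Other NMIs were strong in all 8 sperm and adult libraries and had no interval in any embryo library. They were ranked by the lowest of their 8 fold enrichments. The first, PIZI01000039v1:10291015-10292505 (1491 bp), had 18.1 and 25.6 in the sperm replicates, 31.1 and 23.7 in brain, 25.8 and 30.0 in muscle and 49.4 and 33.7 in PBMC. The second, PIZI01000073v1:497559-498218 (660 bp), had 36.5 and 25.6 in sperm, 31.2 and 21.4 in brain, 18.3 and 17.6 in muscle and 27.2 and 19.2 in PBMC. In it, sperm and adult values overlapped, and 516 of its 660 bp belonged to the sperm set.

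The third, PIZI01000026v1:10026331-10027063 (733 bp), had 27.1 and 24.0 in sperm, 15.5 and 14.6 in brain, 27.0 and 27.5 in muscle and 33.6 and 28.2 in PBMC. The fourth, PIZI01000236v1:120747-121722 (976 bp), had 15.4 and 15.1 in sperm, 14.4 and 14.9 in brain, 23.1 and 23.8 in muscle and 31.5 and 24.3 in PBMC. The fifth, PIZI01002637v1:2315-2921 (607 bp), had 23.3 and 18.1 in sperm, 21.5 and 17.8 in brain, 14.2 and 18.3 in muscle and 35.6 and 25.3 in PBMC. For scale, NMIs of all 6 tissues had a median fold enrichment of 22.6 and 22.2 in the sperm replicates, and 4 of the 5 exceeded it in at least 1 sperm replicate, the exception being the fourth. In the first and the fourth, the sperm stretch was again short, with 480 of 1491 bp and 375 of 976 bp. These NMIs were chosen for their values, which are a description.

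**Figure D5:**
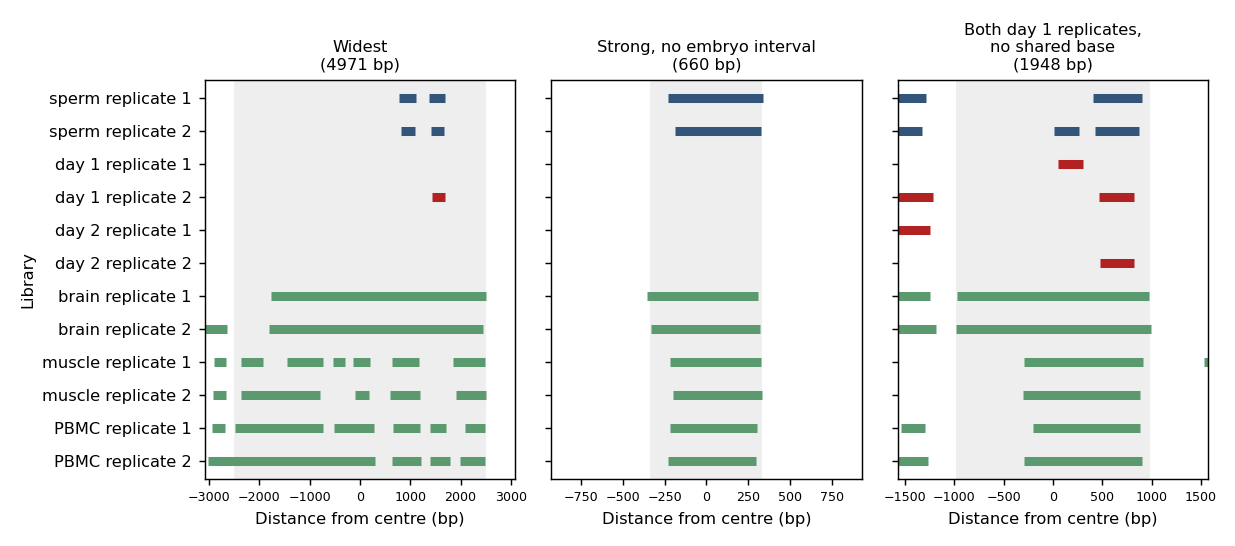
Intervals of the 12 libraries (rows) along 3 named NMIs, by distance from the centre of the NMI in bp (horizontal axis), with the merged NMI shaded. The widest NMI (4971 bp) has short sperm intervals and 1 day 1 interval inside long brain intervals, while muscle and PBMC have several separate intervals there. The strong NMI (660 bp) has intervals in the 8 sperm and adult libraries and none in the embryo libraries. In the third (1948 bp) the day 1 intervals lie apart without a shared base.

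At the edges of the rule, single bases decided whether an NMI was included. The member with the smallest overlap to a required tissue, PIZI01000002v1:11580314-11581084, held 1 bp of the sperm set, with fold enrichments of 2.76 and 3.86 in the sperm replicates and 3.71 to 8.02 in the adult libraries, and day 1 replicate 1 had an interval at 5.26. PIZI01000033v1:10172995-10173609 held 48 bp of the sperm set, and PIZI01000060v1:2102795-2103221 held 82 bp of the brain set. Just outside, PIZI01000002v1:15231296-15231636 was left out for 1 bp shared by the day 1 replicates, whose fold enrichments were 5.48 and 3.06. PIZI01000065v1:2073052-2073940 and PIZI01000027v1:7613994-7615690 were left out for 2 bp and 9 bp of day 1. The fold enrichments just inside and just outside therefore overlapped.

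The position of the NMIs relative to embryo NMIs was not used by the rule beyond the lack of overlap. The median distance to the nearest NMI of either embryo set was 1793 bp, with quartiles of 756 and 4768 bp. For this search scaffolds were placed end to end with a spacer. The 205 NMIs whose nearest embryo NMI lay on another scaffold were left out, so some distances above 10000 bp can be missing. The median was 3352 bp for all merged NMIs outside the embryo sets and 6353 bp for NMIs of brain, muscle and PBMC alone. Neither set was limited to NMIs present in sperm. Nearness to embryo NMIs therefore cannot be read as particular to the NMIs of sperm and adult tissues. Within 500 bp of an embryo NMI lay 14.4% of the NMIs of sperm and adult tissues, against 10.2% and 4.04% in the 2 other sets, and more than 10000 bp away lay 12.6%, against 24.6% and 36.1%. NMIs without an embryo interval in any library had a median distance of 2111 bp.

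The distance to the nearest NMI of all 6 tissues had a median of 3111 bp, compared with 6172 bp for all merged NMIs outside the embryo sets and 10159 bp for those of brain, muscle and PBMC alone. The nearest merged NMI of any kind, in contrast, was at a median of 896 bp, close to the 915 bp over all merged NMIs. Among the immediate neighbours on either side, 35.2% were NMIs of all 6 tissues, against 32.9% around all merged NMIs and 16.7% around those of brain, muscle and PBMC alone. Here too, no comparison set was limited to NMIs present in sperm. The genes near these NMIs were not analysed here, because no annotation of the petMar3 assembly was used.

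Members of the set were spread over 792 of the 5623 scaffolds with a merged NMI. On the 66 scaffolds with at least 500 merged NMIs, which held 81.3% of the set, they made up 2.74 to 5.94% of merged NMIs, with a median of 4.55%. The lowest percentage was on PIZI01000062v1 (21 of 766) and the highest on PIZI01000056v1 (68 of 1145). The most members lay on PIZI01000001v1 (236), PIZI01000003v1 (222) and PIZI01000002v1 (206), at 4.57, 4.95 and 4.35% of the merged NMIs there. Scaffolds with under 10 merged NMIs had 4.52%.

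Neighbouring merged NMIs were seldom both members. Of the 7754, 6847 (88.3%) had no member beside them, 828 lay in 414 runs of 2 and 75 in 25 runs of 3. Members were 6.22% of the immediate neighbours of a member and 4.66% of the neighbours of all merged NMIs. A single run had 4 members, at PIZI01000029v1:6505900-6513367, within 7468 bp. Their widths ran from 558 to 1324 bp, and 3 of the 4 had no interval in any embryo library. The runs of 3 that spanned the fewest bases were PIZI01000268v1:31610-34066, PIZI01000010v1:7168140-7171011, PIZI01000105v1:261069-264127 and PIZI01000089v1:1059317-1062525, with 2457 to 3209 bp.

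How far the pattern repeated was examined by choosing NMIs in the lists of replicate 1 alone and reading them in the lists of replicate 2. The replicate 1 lists gave 173232 merged NMIs, of which 5491 showed the pattern. In replicate 2, intervals were found at 94.9% of these in sperm, 96.3% in brain, 95.3% in muscle and 95.6% in PBMC, where the background over all replicate 1 NMIs was 71.4, 78.0, 73.0 and 61.5%. In day 1 replicate 2 an interval was found at 38.1% of them and in day 2 replicate 2 at 18.4%, against backgrounds of 58.8 and 45.6%. The presence in sperm and adult tissues was thus read again at 85.5% of the NMIs (background 46.0%), and an embryo interval appeared at 46.2% (background 60.9%).

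The whole pattern was read again at 44.6% of the NMIs, against 3.81% of all replicate 1 NMIs. With the replicates exchanged, 6397 NMIs were chosen in replicate 2 and the whole pattern was read in replicate 1 at 37.4%, against 2.99%. Intervals were then found at 80.5% of the NMIs in sperm (background 62.9%), 91.8% in brain (67.9%), 94.7% in muscle (68.8%) and 89.9% in PBMC (56.2%), and in all 4 at 66.8% (41.2%). Of the required tissues, sperm differed most between the directions. An embryo interval appeared at 35.1% in day 1 (56.4%), 10.8% in day 2 (42.8%) and 40.1% in either stage (58.7%). In both directions the presence in sperm and adult tissues lay above its background and the presence in embryos below it. The choice itself favours this direction, since the background also holds NMIs with other calls in the choosing replicate. It is therefore no support for the pattern, and NMIs with a like call in a single tissue were not compared. These percentages carry no test, because NMIs of 1 library are not independent replicates.

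The size of the set depended on single embryo libraries, and by construction so did the percentage with an embryo interval. When day 1 replicate 1 was left out, so that an interval in the other day 1 library was enough to remove an NMI, 5309 NMIs remained and 26.9% of them had an embryo interval. Without day 1 replicate 2 there were 5578 NMIs and 29.8%. Without day 2 replicate 1 there were 6387 NMIs and 55.8%, and without day 2 replicate 2 there were 6662 and 56.0%. The library left out was not counted, and the other library of its stage could have no interval in a remaining NMI. These percentages therefore count intervals of the other stage alone, so that their fall from 67.4% is built in. Under the strictest reading, in which any interval of the 4 embryo libraries removes an NMI, the 2531 NMIs without one remained, or 1.47% of merged NMIs.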

How the data were processed

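BioCAP libraries of 6 lamprey tissues, 2 replicates each, were analysed from the peak list of each library. Reads had been trimmed (Trimmomatic), mapped to petMar3 (Bowtie2), cleared of duplicates (Picard) and passed to MACS2 by the authors, 1 library at a time. The MACS2 options were not given in the sources used here, nor was its use of the inputs. The deposited lists give, for each interval, its position, the fold enrichment at the summit (a ratio to the surrounding background), the p-value and q-value there as -log10, and a whole-number score, which the authors' caller derives from the q-value and which played no part here. Read counts per interval were not used here. In the mapping table of the study, uniquely mapped read pairs are fewest in the embryo libraries, so a missing NMI was treated as not called.

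The bases that both replicates of a tissue covered were taken (minimum 1 bp), overlapping or touching stretches of the 6 sets were joined, and the NMIs were selected as stated above. Where a library had several intervals in an NMI, the one with the highest fold enrichment was used. Summit pileups were obtained by solving the Poisson p-value and the fold enrichment, with 1 added to pileup and background, for both. Intervals with a p-value too small for this calculation were left out of the pileup values per list. They were 10365 and 8717 in the sperm replicates and at most 1651 in any other library. The sperm medians thus leave out strong intervals. Distances run between the nearest ends of 2 NMIs on a scaffold. Positions count from 1 on petMar3. Python 3.11.15, NumPy 2.4.6, pandas 2.3.3 and SciPy 1.17.1 were used, and the functions were tested on simulated data.

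The NMIs and the lists were chosen with earlier results of these data known. The named NMIs are the 5 widest, the 5 with the highest lowest fold enrichment over the 8 sperm and adult libraries among those without an embryo interval, the 5 longest runs, the 3 just inside and the 3 just outside the rule, the 3 widest with intervals of both replicates of a stage but no shared base and the 3 scaffolds with the most NMIs. The scaffolds with the lowest and highest percentage were named after their values were seen. No test was run and no p-value of a group difference is given, since the rule used the same calls. The alternatives were a -log10 q of 5 or 10 and more, equally long lists (89979 intervals), intervals of either replicate, a reciprocal overlap of 50%, a minimum share of the NMI for presence, joining over 100 bp, a stage left out and each library left out. No petMar3 genome or annotation was used here, so sequence, CpG density and genes were not analysed.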

Additional observations from a re-analysis of the deposited data

How the results depend on the processing

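The 7754 NMIs became 11380 at a -log10 q of 5 or more, 17454 at 10 or more, 2466 with equally long lists, 4690 with intervals of either replicate, 2531 with either replicate for the embryos only, 13060 when presence needed 50% of the NMI and 17931 without day 1. Their percentage of merged NMIs, 4.65%, became 7.11 and 12.4% at the 2 thresholds, 2.07% with equally long lists, 2.56 and 1.47% with either replicate (all tissues and embryos only), 7.83% when presence needed 50%, 5.84% without day 2 and 10.9% without day 1. The 2531 NMIs without an embryo interval became 4432 and 9050 at the 2 thresholds, 504 with equally long lists, 4690 with either replicate and 9144 without day 1. Here, and in the percentages with an embryo interval below, embryo intervals under a threshold or cut were not counted. Those of a library left out were not counted either. A -log10 q of 10 lay near the medians of the embryo lists, 12.2 to 13.5, and far below those of the other lists, 26.1 to 60.8. The percentage with an embryo interval, 67.4%, became 61.1 and 48.1% at the 2 thresholds, 79.6% with equally long lists, 71.8% with reciprocal overlap, 86.1% when presence needed 50%, 49.0% without day 1 and, by construction, 0% with either replicate (all tissues or embryos only). Of the 7754 NMIs, 4037 were kept at a -log10 q of 10, 1171 with equally long lists, 2299 with either replicate and 2531 with either replicate for embryos only. The highest other pattern, 3280, became 1588 at a -log10 q of 10 and 1772 with equally long lists. At 2742, it exceeded the 2531 NMIs of the set with either replicate for embryos only. With either replicate in all tissues it was 3482, below the 4690 of the set. It could not be computed without a stage. The whole pattern was read in the second replicate at 44.6% (background 3.81%). It was read at 37.4% (2.99%) with the replicates exchanged, 22.9% (1.22%) with equally long lists and 62.1% (10.9%) at a -log10 q of 10. The background thus moved in the same direction as the percentage. Leaving out single libraries gave ranges of 5309 to 8911 NMIs, 3.15 to 5.09% of merged NMIs, 2555 to 3913 without an embryo interval, 26.9 to 67.6% with one, 5309 to 7746 NMIs kept and 2445 to 4100 for the highest other pattern. Where no cause is named, the cause was not tested. Of the 16 named NMIs in the set, 7 were kept with equally long lists and 3 when presence needed 50%. The depth of the embryo lists limits every statement on absence. No paired analysis was possible because the results are counts and medians that come from no test.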
